A study of Mus musculus with 12 samples.

Results

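The ligands of the TNF superfamily are the proteins through which a T cell engages death receptors, costimulatory receptors and the lymphotoxin β receptor on other cells. Of these ligands, 10 were followed here in cultured mouse Tregs, chosen by gene symbol: Lta, Ltb, Tnf, Tnfsf4, Tnfsf8, Tnfsf10, Tnfsf11, Tnfsf14, Fasl and Cd40lg. All 10 were found among the 55228 genes of the expression table, and all 10 were among the 15043 genes that averaged 1 TPM or more and were tested. The table held 12 RNA-seq libraries in 4 groups, with 3 libraries in each group. EV Tregs carried an empty retroviral vector with a Thy1.1 surface reporter and spent their last 5 days deprived of the cytokine IL-2, a group called EV no IL-2, or left in medium with mouse IL-2, the group EV+IL-2. In the tether groups, 1G12t and 3A10t, the same vector carried an engineered IL-2, 1G12 or 3A10, joined to an orthogonal IL-2 receptor β chain, a mutated chain made to pair with the engineered cytokine, through a CD25-derived linker, and the cells were deprived for the same 5 days. The comparisons ask what soluble IL-2 and what each tethered IL-2 did to these ligands in cells otherwise deprived of the cytokine.

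By the labels, all cells came from the lymph nodes of 16 NOD.Foxp3-GFP mice, a diabetes-prone strain in which GFP reports Foxp3. Every group was activated, transduced on day 2 and sorted on Thy1.1 on day 9. The CD4+ cells were 1 pool, divided into 3 parts that were sorted as GFP+CD25+ Tregs on separate machines, so the replicates were separate cultures and not separate animals, and the spread between them is the error of every p-value below. Sex and age of the mice are not given in the labels. The study's general methods differ from the labels on source and sort. They name lymph nodes and spleens, and CD62L and CD25 as Treg sort markers, without GFP. The vector integrated from a retrovirus, so the construct was driven by a viral promoter and not by a T cell gene. Values are TPM, transcript abundances corrected for the length of the transcript and set to 1 common sum per library, which allow the levels of different genes to be compared, and they were rescaled per library as described under the processing. TPM keep no read totals, and with the depth unknown no counting error is given. In bulk RNA, fewer cells that make a ligand and less of its RNA per cell cannot be told apart.

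The markers fitted the labelled cell type. All 7 Treg markers were above 5 TPM in every group, with a summed level of 3043 to 3430 TPM, and Foxp3 averaged between 408 TPM in 3A10t and 502 TPM in EV+IL-2. Il2, which the tether carries, lay at 0.181 to 0.491 TPM in the EV libraries, at 12.9 to 24.9 TPM in 1G12t and at 18.3 to 29.8 TPM in 3A10t. The sort marker did not stay level: Thy1 averaged 3286 TPM without and 3285 TPM with IL-2 in the EV groups, but 209 TPM in 1G12t and 229 TPM in 3A10t. Its log2 fold changes against EV no IL-2 were -3.99 in 1G12t (adjusted p = 1.821e-07) and -3.84 in 3A10t (adjusted p = 2.693e-07). Il2rb, the receptor chain in the tether, averaged 266 TPM in EV no IL-2, 453 TPM in EV+IL-2, 394 TPM in 1G12t and 371 TPM in 3A10t. Gene-level TPM do not separate vector RNA from the cell's own, and the part of the construct's RNA level in the ligand results was not tested. The markers of B cells summed to 9.19 to 16.6 TPM, most of it Cd79b, and those of CD8 T and NK cells to 3.77 to 6.87 TPM. No marker of the latter averaged 5 TPM in any group, and Cd8b1 was the highest, at up to 5.74 TPM in a single library. The 6 myeloid markers summed to 442 to 764 TPM, almost all from Cst3, while Lyz2 stayed below 0.5 TPM in every library. The erythroid markers moved with a group: the summed level of the 4 globin genes was 24.3 to 38.5 TPM in EV+IL-2 and 1.17 to 3.13 TPM elsewhere, mostly through Hba-a1 and Hba-a2. Of the β-globin genes, Hbb-bs averaged 0.155 TPM in EV+IL-2, while Hbb-bt was at 1.21 to 1.94 TPM there and at 0.185 to 0.418 TPM in EV no IL-2, without overlap but too low on average to be tested. The part of these globin transcripts in the ligand results was not tested.

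One library has to be kept in mind for the ligands. In replicate 3 of 1G12t, 7 of the 10 ligands lay more than 0.5 from the mean of the other 2 libraries of that group on the log2 scale, 5 above and 2 below, against 16.5% of all genes tested in that library. In the other 11 libraries, 0 to 3 ligands lay that far out. The scatter over genes was widest elsewhere, in replicates 1 and 2 of 3A10t, in which the median gene lay 0.26 and 0.31 from the other libraries of its group, against 0.078 in the most typical library. Results for the tethers are therefore also given without the library that decides them.

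TNF superfamily ligands are type II membrane proteins, made as trimers, and several are cut from the cell surface to act at a distance. Lymphotoxin α, from Lta, is the exception that is secreted, either as a homotrimer that binds the TNF receptors or joined with lymphotoxin β, from Ltb, in a membrane complex that binds the lymphotoxin β receptor and organises lymphoid tissue. Tregs express many of the corresponding receptors, among them OX40 and TNFR2, and IL-2, which acts through STAT5, is the cytokine on which they depend.

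Lta, Tnf and Ltb are neighbours in the class III region of the mouse major histocompatibility complex, which gives this locus a place of its own among the 10. In GENCODE M21 on GRCm38, Ltb lies on the plus strand of chromosome 17 at chr17:35194439-35196320, Tnf on the minus strand at chr17:35199381-35202007 and Lta on the minus strand at chr17:35203165-35205351. The 3 genes span 10913 bases, with 1157 bases between Tnf and Lta, which are read in the same direction, and 3060 bases between the facing ends of Ltb and Tnf. Tnfsf14 is on the same chromosome but far away, at chr17:57189492-57194177. Tnfsf4 and Fasl share chromosome 1, 362278 bases apart. Each of the 10 is annotated as protein coding, and the only overlapping annotated genes were microRNA genes on the same strand within Lta and Ltb.

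The promoters of Lta, Ltb and Tnf are shown because Lta and Tnf were among the ligands called higher with soluble IL-2 and their neighbour Ltb was not, as described below. The sequences are RefSeq promoter windows on GRCm38.p6, 5′ to 3′ on the strand of each gene, and cover the 250 bases before the RefSeq start. The Ltb window stops at base 182, where the GENCODE gene begins. Capitals mark a match to the STAT-binding GAS element, TTCNNNGAA, or to the NF-kB consensus. No capitals appear in the Tnf window, since neither was matched there.
Lta, chr17:35205352-35205601, minus strand: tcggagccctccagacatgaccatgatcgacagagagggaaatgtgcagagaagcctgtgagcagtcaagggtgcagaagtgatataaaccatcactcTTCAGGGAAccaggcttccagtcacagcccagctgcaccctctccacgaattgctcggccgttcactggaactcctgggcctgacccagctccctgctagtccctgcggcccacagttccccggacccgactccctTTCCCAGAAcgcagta
Ltb, chr17:35194257-35194438, plus strand: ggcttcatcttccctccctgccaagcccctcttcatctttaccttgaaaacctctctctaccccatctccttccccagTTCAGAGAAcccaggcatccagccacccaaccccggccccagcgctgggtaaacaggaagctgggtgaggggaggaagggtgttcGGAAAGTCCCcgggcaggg
Tnf, chr17:35202008-35202257, minus strand: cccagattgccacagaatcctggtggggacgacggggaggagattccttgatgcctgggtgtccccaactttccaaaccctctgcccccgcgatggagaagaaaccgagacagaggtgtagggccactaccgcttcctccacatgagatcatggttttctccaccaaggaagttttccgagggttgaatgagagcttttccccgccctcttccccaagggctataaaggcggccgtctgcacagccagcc

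The motifs were searched on both strands in the windows of the 8 ligands that the RefSeq table held, and in all 32851 windows of the same length. No window was held for Tnfsf4 and Cd40lg, so these ligands were not searched. Lta held 2 GAS matches, TTCAGGGAA at -152 to -144 and TTCCCAGAA at -16 to -8 from the RefSeq start. Ltb held 1, TTCAGAGAA at -172 to -164, and also the only NF-kB consensus match among the ligands searched, GGAAAGTCCC. The other 6 windows, Tnf included, held no GAS match. A GAS match was present in 7.02% of all windows and an NF-kB consensus match in 7.25%. The AP-1 element TGANTCA was matched in Tnfsf14 only, and in 6.75% of all windows. The NFAT core GGAAA was matched in all 8 ligand windows and in 55.6% of all windows. It overlapped the second GAS match of Lta and the NF-kB match of Ltb. These matches describe letters in the windows and not binding.

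Ltb was by far the most abundant of the ligands, at 2130 ± 177 TPM (SD, n = 3) in EV no IL-2, 14.9 times the level of Lta, at 143 ± 7.15 TPM. Tnfsf8, whose product CD30L binds CD30, followed at 62.2 ± 7.20 TPM, then Tnf at 33.6 ± 4.30 TPM and Cd40lg, the ligand through which T cells help B cells, at 18.5 ± 1.72 TPM. The 5 lowest were Tnfsf11 (RANKL) at 9.55 ± 0.861 TPM, Tnfsf10 (TRAIL) at 6.37 ± 0.594 TPM, Fasl at 5.44 ± 0.889 TPM, Tnfsf4 (OX40L) at 4.61 ± 0.459 TPM and Tnfsf14 (LIGHT) at 2.25 ± 0.134 TPM. Neighbours in this order did not overlap between libraries, with the exception of Tnfsf10 with Fasl and Fasl with Tnfsf4. In EV+IL-2 the order changed. Tnf stood above Tnfsf8, Tnfsf4 moved above Cd40lg and Fasl became the lowest, and the only neighbours whose libraries overlapped were Cd40lg and Tnfsf11. Of the 8 ligands of the superfamily outside the 10, Tnfsf9 was the one that was tested. It averaged 17.0 ± 1.15 TPM in EV no IL-2, between Cd40lg and Tnfsf11, and the others were under 1 TPM there.

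**Figure D1:**
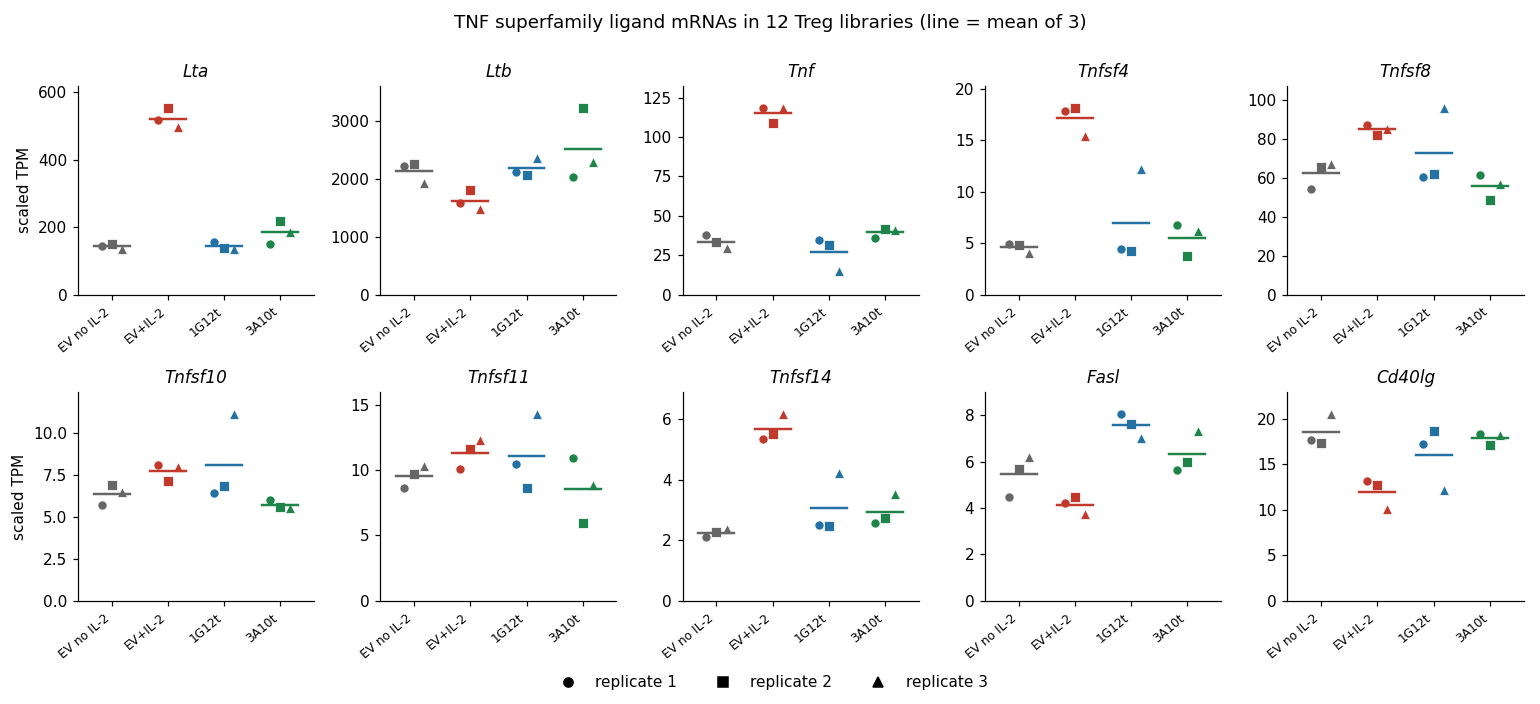
Level of each of the 10 ligands in scaled TPM (vertical axes, each from 0 and on its own scale) in the 4 groups, with 1 point per library, its shape giving the replicate, and a line at the mean of 3. The EV+IL-2 libraries of Lta lie between 496 and 552 TPM, above all other libraries, and the triangle of 1G12t replicate 3 lies away from the other 1G12t points in most of the lower panels.

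Soluble IL-2 changed 5 of the 10 ligands at an adjusted p under 0.05, and 13.3% of all genes tested. The cultures held IL-2 until the wash on day 4, so these are differences between continued IL-2 and its withdrawal. The study's methods name human IL-2 for the expansion of Tregs and a lower dose of mouse IL-2 for EV+IL-2. By the same methods, the EV groups were parts of the same transduced culture. Lta, Tnf, Tnfsf4 and Tnfsf14 were higher in EV+IL-2 than in EV no IL-2, and Cd40lg was lower. Over all genes, 8.17% were called higher and 5.13% lower. The 10 ligands had a median log2 fold change of 0.35, against -0.01 over all genes, and 8 of them did not overlap between the groups, a property of 39.6% of all genes. At the threshold the study used for a DEG, which asks for a log2 fold change beyond 0.25 with an unadjusted p under 0.01, the same 5 ligands passed with soluble IL-2, as did 15.1% of all genes. Log2 fold changes are differences in log2(scaled TPM + 1), which understates the change of the low ligands.

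Lta was at 144, 150 and 136 TPM in replicates 1, 2 and 3 of EV no IL-2 and at 517, 552 and 496 TPM in EV+IL-2. Each library with IL-2 stood far above each library without. The difference was 1.86 on the log2 scale (SE 0.12, limma, adjusted p = 6.689e-06), a ratio of mean TPM of 3.64. Lta is among the genes that the study picked from these libraries for display, so its difference is not independent of that choice.

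Tnf, the founding inflammatory cytokine of the family, was at 38.0, 33.5 and 29.4 TPM in EV no IL-2 and at 118, 109 and 118 TPM in EV+IL-2. The groups were again wide apart, with a log2 fold change of 1.75 (SE 0.25, adjusted p = 0.0008883) and a ratio of 3.42. The ratio of Lta to Tnf was thus alike in the EV groups, 4.30 ± 0.445 without and 4.55 ± 0.455 with IL-2.

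Among the costimulatory ligands, Tnfsf4 was at 4.91, 4.82 and 4.08 TPM in EV no IL-2 and at 17.9, 18.1 and 15.4 TPM in EV+IL-2. It is the ligand of OX40, which is abundant on Tregs. The log2 fold change was 1.69 (SE 0.31, adjusted p = 0.004387), a ratio of 3.72. Tnfsf14, whose product LIGHT binds HVEM and the lymphotoxin β receptor, was at 2.10, 2.27 and 2.37 TPM without and at 5.34, 5.51 and 6.15 TPM with IL-2. It was the least abundant of the 10 without IL-2, and all its EV+IL-2 libraries were higher, with a log2 fold change of 1.04 (SE 0.17, adjusted p = 0.001995) and a ratio of 2.52. These 4 increases were called in every alternative processing that could be fitted, 21 settings for Lta, Tnf and Tnfsf4 and 20 for Tnfsf14.

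Cd40lg went the other way. It was at 17.6, 17.3 and 20.5 TPM in EV no IL-2 and at 13.1, 12.7 and 10.1 TPM in EV+IL-2, with no overlap. The log2 fold change was -0.59 (SE 0.15, adjusted p = 0.02463). This call was the least secure of the 5, as it was lost in 6 of 21 alternatives, among them the removal of any 1 EV no IL-2 library, with adjusted p up to 0.1001.

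Ltb was not called. It was at 2213, 2249 and 1927 TPM in EV no IL-2 and at 1583, 1809 and 1482 TPM in EV+IL-2, so that all 3 libraries with IL-2 were lower. The log2 fold change was -0.39 (SE 0.15, adjusted p = 0.1173), and it was called lower in 4 of 21 alternatives, with adjusted p from 0.003712 to 0.2955. Of these, 2 were other scalings of the TPM. The others were the fit of the 6 EV libraries alone and the fit without replicate 2 of 3A10t. The tether libraries are outside this comparison but enter the variance of the main fit. In the fit of the EV libraries alone, 21.9% of all genes were called. With TPM as deposited or with quantile normalization, the count of called ligands was accordingly 6, with 4 higher. In these settings 14.6% and 13.0% of all genes were called.

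Tnfsf8 was also not called, although the EV+IL-2 libraries, at 86.9, 82.1 and 85.0 TPM, all stood above those of EV no IL-2, at 53.9, 65.6 and 67.0 TPM. Its log2 fold change was 0.45 (adjusted p = 0.1088), and 2 of 21 alternatives called it. These were the fit of the 6 EV libraries alone and the fit without replicate 3 of 1G12t. The death ligands gave values of 0.25 for Tnfsf10 (adjusted p = 0.3914) and -0.32 for Fasl (adjusted p = 0.1355), and the RANK ligand gene Tnfsf11 gave 0.22 (adjusted p = 0.5756). None of these 3 was called in any alternative.

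**Figure D2:**
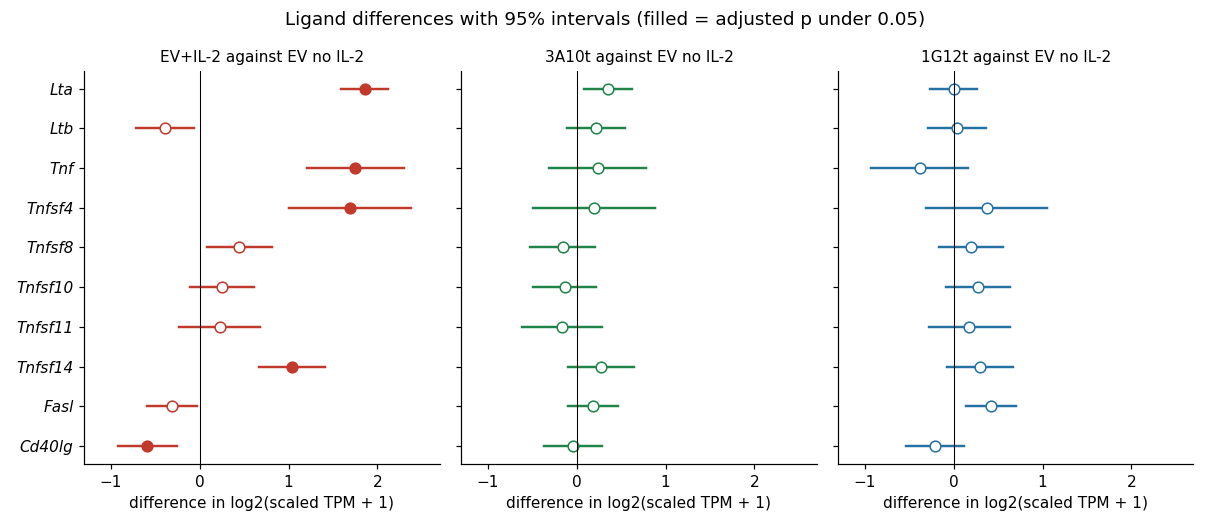
Difference of each ligand from EV no IL-2 in log2(scaled TPM + 1) (horizontal axis) for EV+IL-2, 3A10t and 1G12t, with 95% intervals from the limma fit and filled points where the adjusted p is under 0.05. Filled points appear in the EV+IL-2 panel only, at Lta, Tnf, Tnfsf4, Tnfsf14 and Cd40lg, and the 3 panels share the same EV no IL-2 libraries.

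The make-up of the ligand transcripts differed between the EV groups more than their sum did. The 10 ligands together amounted to 2416 ± 181 TPM in EV no IL-2 and to 2404 ± 191 TPM in EV+IL-2 (SD, n = 3). The share of Ltb in that sum was 88.8%, 88.4% and 87.2% without IL-2 and 67.0%, 69.3% and 66.3% with it. The ratio of Ltb to Lta was 15.4, 15.0 and 14.2 in EV no IL-2 and 3.06, 3.28 and 2.99 in EV+IL-2. The 2 groups were well apart, and the exact two-sided permutation test gave p = 0.1 for the ratio, the smallest value that 3 against 3 libraries allow. A ratio of this kind needs no scaling of the libraries. In 1G12t it was 13.7, 15.0 and 17.3 (exact permutation p = 0.9 against EV no IL-2) and in 3A10t 13.4, 14.7 and 12.4 (p = 0.2 by the same exact test), each range reaching into that of EV no IL-2.

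**Figure D3:**
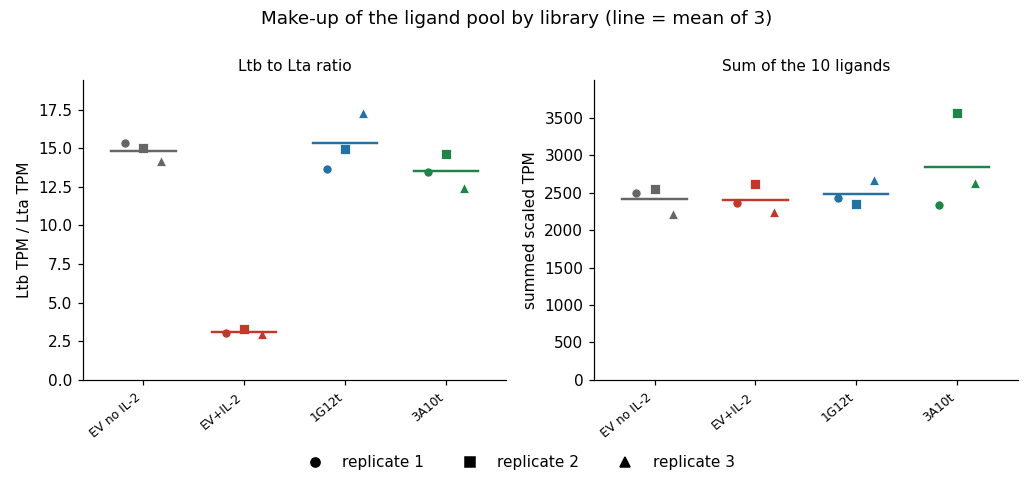
Ratio of Ltb to Lta TPM (left) and the summed scaled TPM of the 10 ligands (right) in each library, by group, with a line at the mean of 3. The ratio lies between 2.99 and 3.28 in EV+IL-2 and between 12.4 and 17.3 in the other libraries, while the sums of the EV groups overlap and 3A10t replicate 2 has the highest sum, 3568 TPM.

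In 3A10t Tregs, none of the 10 ligands was called against EV no IL-2, where 2.05% of all genes were, and none met the DEG threshold, which 9.50% of all genes met. The called share of all genes, 2.05%, depended on which libraries were in the fit. It was 23.2% without replicate 1 of 3A10t, and 0.315% and 0.227% without its replicates 2 and 3. Without replicates 1, 2 and 3 of EV no IL-2 it was 0.604%, 0.205% and 0.166%. Leaving out a library of EV+IL-2 or of 1G12t, which are outside this comparison, gave 0.493% to 1.61%. The fit of the 6 compared libraries alone gave 0.0592%. At an unadjusted p under 0.05 stood 1 of the 10 ligands and 26.0% of all genes. That ligand was Lta, at 151, 220 and 185 TPM in the 3A10t libraries. The lowest of them lay just above the highest EV no IL-2 library, and replicate 2 was the highest. The log2 fold change was 0.35 (SE 0.12, 95% interval 0.084 to 0.62), with an unadjusted p of 0.01465 and an adjusted p of 0.1177 in limma. The result depended on replicate 1 of 3A10t, without which the difference was 0.49 and was called (adjusted p = 0.006704), as were 23.2% of all genes in that setting. Without replicate 2 it was 0.22 (adjusted p = 0.3198), so a single library decided the call. The paper lists Lta among the genes whose upregulation marked IL-2 signaling in both EV+IL-2 and 3A10t. The study's own tests used counts and DESeq2, so the DEG threshold here is applied to another measure with another method.

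Tnfsf14 was the other ligand whose 3A10t libraries, at 2.56, 2.74 and 3.51 TPM, all stood above EV no IL-2. The gap was small and the log2 fold change of 0.27 was not called (adjusted p = 0.314). A lack of overlap of this kind was seen for 2 of the 10 ligands and for 25.4% of all genes. Ltb was at 2032, 3217 and 2298 TPM. Replicate 2 lay far above the EV no IL-2 libraries, replicate 3 just above them and replicate 1 within their range. The log2 fold change of Ltb, 0.22 (adjusted p = 0.3649), fell to -0.0039 with quantile normalization. Tnf, at 35.7, 41.9 and 41.2 TPM, overlapped EV no IL-2 and differed by 0.23 (adjusted p = 0.554). The remaining 6 ligands had log2 fold changes from -0.17 for Tnfsf11 to 0.20 for Tnfsf4, and Cd40lg, at -0.04, turned to 0.08 with quantile normalization. For Tnf and Tnfsf4, the 95% intervals of the 3A10t difference reached 0.78 and 0.88 and ended below the differences measured with soluble IL-2, 1.75 and 1.69.

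In 1G12t Tregs, none of the 10 ligands was called against EV no IL-2 either, where 0.0199% of all genes were, and 1 had an unadjusted p under 0.05, as did 7.04% of all genes. Fasl, the ligand of the death receptor Fas, was at 8.03, 7.62 and 7.03 TPM in 1G12t and at 4.46, 5.67 and 6.20 TPM in EV no IL-2. All 3 libraries with the tether were higher. The log2 fold change was 0.42 (SE 0.13), with an unadjusted p of 0.007531 and an adjusted p of 0.6835 in limma. Fasl therefore met the study's DEG threshold as applied here, in limma on TPM, as 1.36% of all genes did. The study's own list of genes higher in 1G12t, from DESeq2 on counts, does not hold Fasl. With the replicate number as a block, Fasl did not meet the threshold here, and the count of ligands at this threshold was 0. The count was also 0 without replicate 1 or 2 of EV no IL-2, of EV+IL-2 or of 1G12t. Tnfsf14 was the other ligand without overlap, at 2.50, 2.45 and 4.23 TPM and a log2 fold change of 0.30 (adjusted p = 0.7414), against 16.5% of all genes without overlap.

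Lta overlapped EV no IL-2 in 1G12t, at 156, 138 and 136 TPM, with a log2 fold change of -0.0025 (95% interval -0.27 to 0.26), a value whose sign turned with the scaling of the TPM. Ltb, at 2125, 2067 and 2354 TPM, differed by 0.04 and overlapped EV no IL-2 as well. The largest values among the others came from replicate 3. Tnfsf4 was at 4.44 and 4.27 TPM in replicates 1 and 2 and at 12.2 TPM in replicate 3, and Tnf was at 34.7, 31.5 and 14.8 TPM. Tnfsf8 was at 60.2, 62.0 and 95.5 TPM, and Tnfsf10 at 6.41, 6.82 and 11.1 TPM. In that library Tnfsf4, Tnfsf8, Tnfsf10, Tnfsf11 and Tnfsf14 were high together while Tnf and Cd40lg were low, and Lta, Ltb and Fasl were near the other libraries. Without replicate 3 the log2 fold change of Tnfsf4 went from 0.37 to -0.06, that of Tnf from -0.38 to -0.01, that of Tnfsf10 from 0.27 to 0.05 and that of Cd40lg from -0.21 to -0.04. Tnfsf8 went from 0.19 to -0.02, Tnfsf11 from 0.18 to -0.0025 and Tnfsf14 from 0.30 to 0.10, and Fasl had a value of 0.46.

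**Figure D4:**
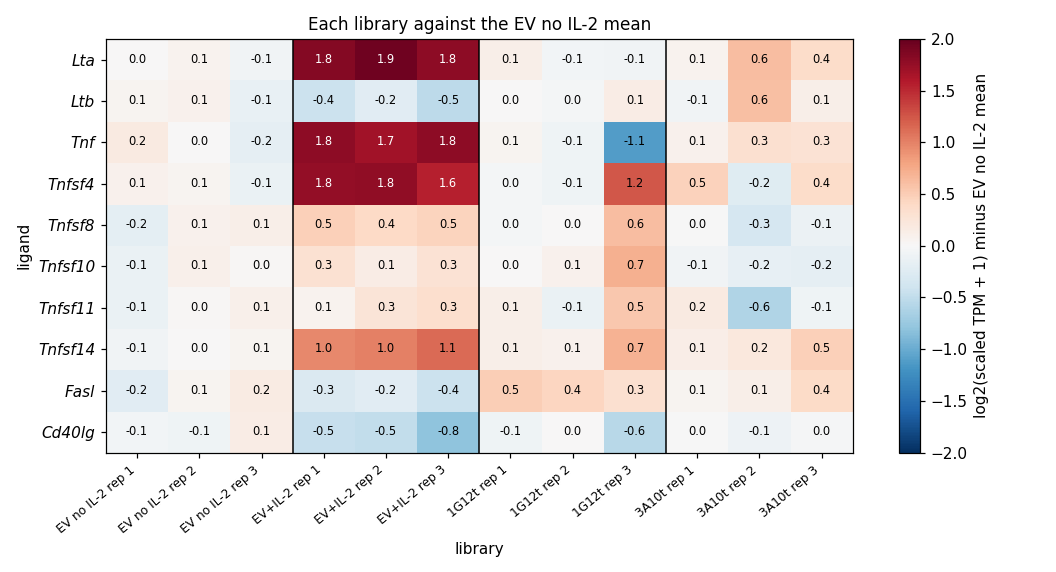
Difference of each library from the EV no IL-2 mean in log2(scaled TPM + 1), shown as colour from -2 to 2 with the value printed, for 10 ligands (rows) in 12 libraries (columns, grouped). Lta, Tnf, Tnfsf4 and Tnfsf14 are red in all 3 EV+IL-2 libraries, and 1G12t replicate 3 differs from its neighbours at Tnfsf4, with 1.24, and at Tnf, with -1.12.

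Between the tethers, which differ in the IL-2 variant, none of the 10 ligands was called, where 4.27% of all genes were, and 3 had an unadjusted p under 0.05, as did 29.7% of all genes. The called share of all genes was 27.6% without replicate 1 of 3A10t, 0.697% and 0.347% without its replicates 2 and 3, and 0.854%, 0.562% and 0.316% without replicates 1, 2 and 3 of 1G12t. Lta was 0.35 higher in 3A10t than in 1G12t on the log2 scale (adjusted p = 0.09066) with overlapping libraries, and it was called without replicate 1 of 3A10t (adjusted p = 0.006479), the setting in which 27.6% of all genes were. Tnf was 0.62 higher (adjusted p = 0.1301), with all 3 libraries above. Tnfsf10, at 5.98, 5.60 and 5.50 TPM in 3A10t, had all 3 libraries below those of 1G12t and a log2 fold change of -0.41 (adjusted p = 0.1266). These 2 ligands were without overlap between the tethers, as were 26.2% of all genes. The values of Tnf and Tnfsf10 lean on 1G12t replicate 3, and their smallest differences over the alternatives were 0.25 and -0.18. A p that misses the threshold does not show that the tethers act alike, and the 95% interval for Tnf ran from 0.071 to 1.16.

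Against EV+IL-2, 8 of the 10 ligands were called in 3A10t, 3 higher and 5 lower, and 5 in 1G12t, 1 higher and 4 lower. Of all genes, 23.4% were called in 3A10t, 10.3% higher and 13.0% lower, and 20.6% in 1G12t, 9.69% higher and 10.9% lower. These comparisons share the EV+IL-2 libraries with each other and with the comparison above, so they are the same EV+IL-2 values seen from another group. Lta was lower by 1.50 in 3A10t (log2 fold change -1.50, adjusted p = 2.868e-05) and had a log2 fold change of -1.86 in 1G12t (adjusted p = 5.761e-06). The values for Tnf were -1.52 in 3A10t (adjusted p = 0.001943) and -2.14 in 1G12t (adjusted p = 0.0002181). Tnfsf4 and Tnfsf14 were lower in both tethers as well, with log2 fold changes of -1.50 and -0.76 in 3A10t and -1.32 and -0.74 in 1G12t. The 1G12t call of Tnfsf4 was lost without replicate 2 of 1G12t (limma, adjusted p = 0.05003) and held in 20 of 21 alternatives.

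Fasl was called higher than EV+IL-2 in both tethers, by 0.50 in 3A10t (adjusted p = 0.01746) and by 0.73 in 1G12t (adjusted p = 0.002564). The EV+IL-2 libraries of Fasl, at 4.21, 4.47 and 3.76 TPM, lay below all 6 tether libraries. In 1G12t the call held in all 21 alternatives, and in 3A10t in 17 of 21. Ltb and Cd40lg were called higher in 3A10t, with log2 fold changes of 0.61 (adjusted p = 0.01554) and 0.55 (adjusted p = 0.02403), and Tnfsf8 was called lower, at -0.60 (adjusted p = 0.0245). In 1G12t the same ligands gave 0.43 for Ltb (adjusted p = 0.06798), 0.38 for Cd40lg (adjusted p = 0.1027) and -0.25 for Tnfsf8 (adjusted p = 0.3213), none of them called. Without replicate 3 of 1G12t, Cd40lg and Tnfsf8 were called there too, at 0.55 and -0.46. With TPM as deposited, with quantile normalization or with the 6 libraries alone, Ltb was also called in 1G12t, which made 6 ligands, with 2 higher. Of all genes, 21.8%, 17.0% and 21.5% were called in these settings. The 3A10t count was only 4 when replicate 3 of EV+IL-2 was left out, and 5 when replicate 1 of EV+IL-2 or replicate 3 of 3A10t was. The called share of all genes also fell in these settings, to 16.4%, 12.9% and 16.6%.

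The receptors of the 10 ligands were listed as 11 genes, of which 7 were tested. With soluble IL-2, 2 of the 7 were called higher and 1 lower, against 8.17% and 5.13% of all genes. Tnfrsf10b, the TRAIL receptor, went from 2.51 ± 0.305 to 4.37 ± 0.290 TPM (SD, n = 3). Its log2 fold change was 0.62 (adjusted p = 0.00804). Fas, the receptor of Fasl, was at 82.7 ± 6.44 TPM without and at 103 ± 1.51 TPM with IL-2, a log2 fold change of 0.32 (adjusted p = 0.02381). Tnfrsf14, which encodes HVEM, the receptor of LIGHT, was at 65.7 ± 6.49 TPM without and at 38.1 ± 3.28 TPM with IL-2. Its log2 fold change was -0.77 (adjusted p = 0.005756), the opposite direction to its ligand Tnfsf14. None of the 7 receptors was called in 3A10t or in 1G12t, where 2 and 1 had an unadjusted p under 0.05, against 26.0% and 7.04% of all genes. At the study's DEG threshold stood 1 receptor higher and 1 lower in 3A10t, against 9.50% of all genes. In 1G12t 0 receptors met it, against 1.36% of all genes.

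Of the 14 adapters and kinases downstream of these receptors, all tested, Casp8, the initiator caspase of death receptors, was called higher with soluble IL-2 (log2 fold change 0.38, adjusted p = 0.02036), 1 of 14 against 13.3% of all genes. Traf6, a ubiquitin ligase used by CD40 and RANK, was called lower in 3A10t (log2 fold change -0.78, adjusted p = 0.033). This was 1 of 14 against 2.05% of all genes, a share that depended on the libraries in the fit, as given above. None of the 14 was called in 1G12t, where 0.0199% of all genes were, and 3 had an unadjusted p under 0.05, against 7.04% of all genes. The sheddases Adam10 and Adam17, which cut FasL and TNF from the cell surface, were not called against EV no IL-2 in any group. In 3A10t both had all 3 libraries below EV no IL-2, with adjusted p of 0.05776 and 0.06888 in limma. Both met the study's DEG threshold, as did 9.50% of all genes, and 25.4% of all genes were without overlap. Adam10 was at 31.8, 24.6 and 25.5 TPM in replicates 1, 2 and 3 of 3A10t, and Adam17 at 31.3, 16.8 and 17.6 TPM. Replicate 1 was thus close to the lowest EV no IL-2 library, at 33.7 TPM for Adam10 and 33.1 TPM for Adam17.

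Over the 12 libraries, the genes whose levels followed the 4 increased ligands most closely were ranked by Pearson's r on the log2 scale among 9272 genes. For Lta these were S100a6 (r = 0.994), Pigz (0.994), Cdca3 (0.991), Tyms (0.990) and Stc2 (0.989). For Tnf they were AA467197 (0.992), Cited4 (0.986), Cndp2 (0.986), Myl10 (0.985) and Gzmb (0.984), the last the granzyme B gene. Tnfsf4 was followed by Riok1 (0.978), Sesn2 (0.975), Cd200r1 (0.973), Dusp1 (0.960) and Nrep (0.959), and Tnfsf14 by Pcyt1a (0.967), Il1rl1 (0.962), Icosl (0.960), Serpina3g (0.959) and Dusp1 (0.955). These values describe 12 libraries that fall into EV+IL-2 and the rest, and the genes were selected for their r. Over the 9 libraries without EV+IL-2 the same pairs had an r of 0.814 to 0.968. Those 9 are among the 12 used to select the genes, so this is no separate check. Within the 9, replicate 3 of 1G12t was the lowest for Tnf, at 14.8 TPM. It was the highest for Tnfsf4 and Tnfsf14, at 12.2 and 4.23 TPM, and r without it was not computed.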

How the data were processed

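RNA was sequenced by the authors from 12 Treg libraries, which were placed in 4 groups by their titles. The deposited values are TPM per gene symbol, 1 column per library, and all 12 columns were used. By the submitters' processing notes and the study's methods, adapters and low-quality ends were removed with cutadapt 1.18, STAR 2.5.3 placed the reads on mm10 (GRCm38) and RSEM 1.3.0 quantified GENCODE genes. For the study's own tests DESeq2 1.26 was run on counts that were not used here. TPM keep no depth, and TPM of a gene depend on all others in the library.

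The TPM were divided per library by median-of-ratios factors (0.854 to 1.09). The number of genes above 0 TPM was 30393 to 43285 per library. It was lowest in the EV+IL-2 libraries, at 30393, 32422 and 36239, and 37930 or more in all others. The part of this difference in the ligand results was not tested. Genes that averaged 1 TPM or more were tested with limma 3.58.1 in R 4.3.3, with a linear model per gene and a trended empirical Bayes variance. The fit used log2(scaled TPM + 1) of all 12 libraries together, 1 mean per group and no block, and p-values were adjusted over all 15043 genes by the Benjamini-Hochberg method. A gene was called at an adjusted p under 0.05. The study's DEG threshold was applied beside it, with a log2 fold change beyond 0.25 and an unadjusted p under 0.01. Ratios were compared by an exact two-sided permutation test. The alternatives were pseudocounts of 0.1 and 5, no filter or a minimum average of 5 TPM, unscaled TPM, quantile normalization, a fit of the 6 compared libraries alone, a replicate block, a variance without trend and each library left out once. The scripts were tested on simulated data. Figures were drawn with Python 3.11.15 and matplotlib 3.10.9.

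The ligands, lists, markers and tests were chosen with earlier results of these data known. All 10 ligands are named whatever their values. From the lists of other ligands, receptors, adapters and kinases, and sheddases, a gene is named where it passed an adjusted p under 0.05 against EV no IL-2, except Tnfsf9, Adam10 and Adam17, which were singled out after their values were seen. Genes of like pattern are the 5 with the largest Pearson's r, at an average of 5 TPM or more, for each of the 4 ligands with the smallest p in limma's F test over the groups. The 10 ligands and symbols that start with Gm and a digit were left out of that ranking. Positions come from GENCODE M21 on GRCm38, which held 53569 of the 55228 symbols, and promoters from RefSeq on GRCm38.p6, in which 8 of the 10 ligands were matched. The study's methods name a later GENCODE release. The labels give a shared sort for libraries with the same replicate number, so the numbers pair the libraries. Over the 18 pairs with the same number the mean correlation of deviations from the group means was 0.041, against -0.020 over the 36 pairs with different numbers.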

Additional observations from a re-analysis of the deposited data

How the results depend on the processing

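Depth was unknown and 3 libraries per group came from 1 pool of cells, so small differences in the low ligands could not be resolved. With the replicate block, 1G12t had 0 ligands at the study's DEG threshold instead of 1, and no other count or call of a ligand that the text gives against EV no IL-2 changed. That count was also 0 with a mean TPM of at least 5, with quantile normalization and with only the 6 libraries compared, and ranged from 0 to 1 with a library left out. In 3A10t against EV no IL-2, 1 ligand met the DEG threshold with quantile normalization, and leaving out a library gave 0 to 1 both there and at the adjusted threshold. Leaving out a library also gave 0 to 1 called ligands in 3A10t against 1G12t and 4 to 9 in 3A10t against EV+IL-2. The called share of all genes then ranged from 0.316% to 27.6% and from 12.9% to 33.7%. In 3A10t against EV no IL-2 it ranged from 0.166% to 23.2%. Signs turned only among ligands that were not called. On unscaled TPM and after quantile normalization the log2 fold change of Lta in 1G12t was 0.041 and 0.074, and under quantile normalization that of Ltb in 3A10t was -0.0039 and that of Cd40lg in 3A10t 0.082. Over the libraries left out in 3A10t, Cd40lg ranged from -0.084 to 0.030 and Tnfsf11 from -0.34 to 0.043. In 1G12t, Lta ranged from -0.062 to 0.035, Ltb from -0.038 to 0.073, Tnfsf4 from -0.062 to 0.60, Tnfsf8 from -0.017 to 0.31 and Tnfsf11 from -0.0025 to 0.33. The libraries whose removal turned a sign were replicate 3 of EV no IL-2 for Cd40lg in 3A10t and Ltb in 1G12t, replicate 2 of 3A10t for Tnfsf11 in 3A10t, replicate 3 of 1G12t for all 5 of the 1G12t values, and for Lta, whose value was near 0, also 5 others. The cause of these changes was not tested. Tnfsf14 could not be fitted with a mean TPM of at least 5, which removed it. On unscaled TPM the middle log2 fold change over genes was -0.09 in 3A10t against EV no IL-2, instead of 0.03, and -0.18 in 3A10t against 1G12t, instead of -0.02.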
